A study of Homo sapiens with 12 samples.

Results

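The miR-29 family was followed over the EMT that TGF-β induces in A549 cells. Its members were 7 mature miRNAs of 2588 in the count table, chosen by name: the 3p strands hsa-miR-29a-3p, hsa-miR-29b-3p, and hsa-miR-29c-3p, and the 5p strands hsa-miR-29a-5p, hsa-miR-29b-1-5p, hsa-miR-29b-2-5p, and hsa-miR-29c-5p. All 7 passed the filter on low counts, as did 491 miRNAs in all. A549 is an established line of human lung adenocarcinoma cells with the features of alveolar basal epithelium, and TGF-β drives these cells from an epithelial to a mesenchymal state. Small RNA was sequenced at 0 h (untreated), 24 h, and 96 h of treatment, with 2 libraries per time point. Each library was sequenced in 2 runs. By the dates in the sample titles, all libraries shared the date of their earlier run. The later run was dated alike for both 24 h libraries, and later still for both 96 h libraries. The 0 h libraries were split between those dates. Between 24 h and 96 h, time point and date of the later run thus cannot be told apart. The labels name no genetic change in any group, and no untreated culture at 24 or 96 h was among the samples, so treatment and time in culture cannot be told apart. The labels do not say whether the libraries of a time point came from separate cultures, so p-values measure only the spread between these libraries.

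A miRNA precursor is a hairpin that is cut into 2 arms. In the miR-29 family the 3p arm is the guide strand that is loaded into Argonaute, and the 5p arm is mostly degraded. The guide strands pair through their seed, the bases next to the 5′ end, with sites in the 3′UTRs of collagens, fibrillin, elastin, laminin, and other matrix genes. The family is known as a brake on matrix production, and TGF-β lowers it in fibroblasts and other cells of fibrosing tissue.

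The mature sequences are shown because the 3 guide strands share their seed while the 5p strands do not, and because the guide strands are alike enough to bear on how their reads were assigned. All 7 were taken from RefSeq (GRCh38.p14), are written 5′ to 3′, and have their seed (bases 2 to 8) in capitals. The guide strands with the shared seed were as follows.
miR-29a-3p: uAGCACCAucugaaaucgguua
miR-29b-3p: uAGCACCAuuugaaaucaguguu
miR-29c-3p: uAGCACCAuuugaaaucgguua
The 5p strands each had a seed of their own.
miR-29a-5p: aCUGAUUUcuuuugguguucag
miR-29b-1-5p: gCUGGUUUcauauggugguuuaga
miR-29b-2-5p: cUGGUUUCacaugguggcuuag
miR-29c-5p: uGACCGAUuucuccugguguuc
With positions counted from 1 at the 5′ end, miR-29a-3p and miR-29c-3p differed by 1 base (C10U, the base of miR-29a-3p first). Between miR-29b-3p and miR-29c-3p the first 17 bases were identical and 3 later bases differed (A18G, G21U, and U22A, the base of miR-29b-3p first). No other human miRNA in the RefSeq table had any of these 5 seeds.

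The family comes from 4 hairpins in 2 pairs. On GRCh37, by an exact match of each RefSeq hairpin, MIR29A lay at chr7:130561506-130561569 and MIR29B1 at chr7:130562218-130562298, both on the minus strand and 648 bases apart. Both lay within the long noncoding RNA gene LINC-PINT on the same strand, MIR29B1 wholly inside an exon and MIR29A not wholly inside any exon. The other pair was MIR29B2 at chr1:207975788-207975868 and MIR29C at chr1:207975197-207975284, both on the minus strand, 503 bases apart, and inside exons of their host gene MIR29B2CHG. The mature miR-29b-3p is made from both MIR29B1 and MIR29B2, so its reads could not be ascribed to either pair, whereas miR-29b-1-5p and miR-29b-2-5p each belong to 1 hairpin.

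Library totals on mature miRNAs ranged from 2335185 counts in 0 h replicate 1 to 5971197 counts in 96 h replicate 1. In all 6 libraries miR-21-5p, which the study centred on, took most of the reads, with 560989 and 524124 CPM (counts scaled to a common library total) before treatment and 655471 and 637717 CPM after 96 h. Levels are therefore given as CPM scaled with TMM (trimmed mean of M values), which sets aside the miRNAs that differ most between libraries. Called miRNAs had an adjusted p under 0.05 together with a log2-fold change beyond 1 in size, as the study's methods set it.

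Among the guide strands, miR-29a-3p and miR-29b-3p were abundant and miR-29c-3p was scarce. The member from MIR29A, hsa-miR-29a-3p, had 6218 and 10604 TMM-normalized CPM before treatment (replicates 1 and 2), 10037 and 8187 after 24 h, and 5782 and 8428 after 96 h. It ranked between 6 and 18 among all miRNAs of a library. Its libraries overlapped between all 3 time points, and the 2 libraries at 0 h lay nearly as far apart as the lowest and highest of all 6. For hsa-miR-29b-3p, made from both pairs of hairpins, the levels were 4250 and 8189 CPM before treatment, 9744 and 5536 after 24 h, and 2919 and 3326 after 96 h. Both 96 h libraries were below all 4 earlier libraries, and its rank among all miRNAs was 22 and 9 before treatment against 35 and 28 after 96 h. The member from MIR29C, hsa-miR-29c-3p, had only 51.3 and 99.1 CPM before treatment, 92.7 and 59.7 after 24 h, and 34.3 and 42.6 after 96 h. Its order of libraries was that of miR-29b-3p except that the highest and second highest were exchanged, with both 96 h libraries again lowest.

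**Figure D1:**
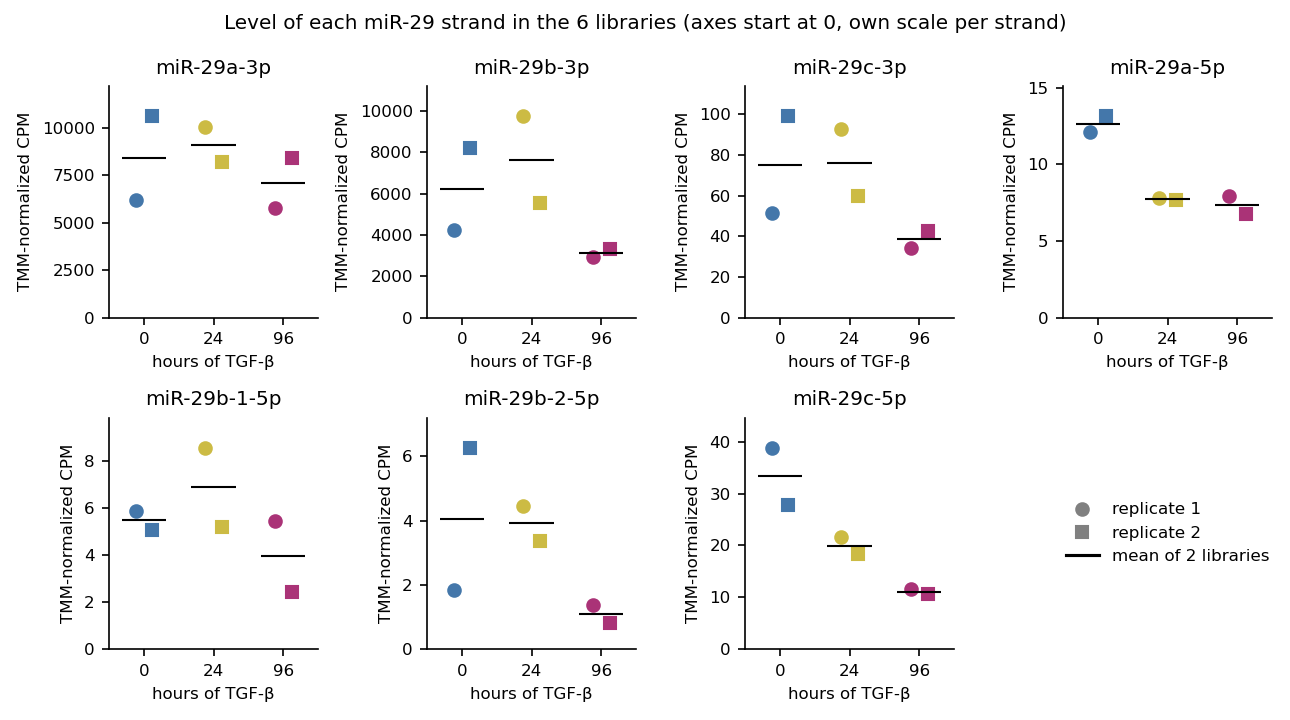
Level of each miR-29 strand in TMM-normalized CPM (vertical axis, from 0, with a scale of its own in each panel) against hours of TGF-β (horizontal axis); circles are replicate 1, squares replicate 2, and bars the mean of 2 libraries. Both 96 h libraries lie below all others for miR-29b-3p, miR-29c-3p, miR-29b-2-5p, and miR-29c-5p, whereas miR-29a-3p overlaps between all time points. The share of all tested miRNAs with both 96 h libraries lowest was not counted. Both lay below both 0 h libraries for 38.7% of the tested miRNAs.

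At 96 h against 0 h, miR-29b-3p and miR-29c-3p fell by about as much, and miR-29a-3p did not pass the test. The mean of miR-29b-3p was 6219 ± 2786 CPM before and 3122 ± 288 CPM after (SD, n = 2), which gave a log2-fold change of -0.99 ± 0.31 (SE) with an adjusted p = 0.0266 in the quasi-likelihood test of edgeR, Benjamini-Hochberg adjusted over all tested miRNAs. For miR-29c-3p the means were 75.2 ± 33.8 and 38.4 ± 5.89 CPM, and the log2-fold change was -0.98 ± 0.32 (adjusted p = 0.0305, edgeR). Both passed the adjusted p and missed the fold threshold, so neither was called. MiR-29a-3p had 8411 ± 3101 and 7105 ± 1871 CPM, a log2-fold change of -0.24 ± 0.25 (adjusted p = 0.456, edgeR). The results for miR-29b-3p and miR-29c-3p turned on the 0 h libraries. Without 0 h replicate 2 the log2-fold changes were -0.44 (adjusted p = 0.127, edgeR) and -0.41 (0.249), without 0 h replicate 1 they were -1.35 (2.32e-05) and -1.33 (1.41e-04), and without either 96 h library neither passed. For miR-29c-3p the adjusted p was 0.0598 without 24 h replicate 1 (edgeR).

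The strand that fell furthest beyond its error was miR-29c-5p, the 5p arm of MIR29C. It had 38.8 and 27.8 TMM-normalized CPM before treatment, 21.6 and 18.4 after 24 h, and 11.6 and 10.6 after 96 h, from 106, 93, 58, 60, 51, and 39 counts. The 3 time points did not overlap, and both libraries of each later time point were below all earlier ones. Between 0 h and 96 h its log2-fold change was -1.58 ± 0.26 (adjusted p = 0.00107, edgeR), which is 2.98-fold lower. It was the only member called in this comparison, 1 of 7, where 13.2% of the tested miRNAs were called lower. It stayed called under every alternative tried, with log2-fold changes from -2.29 to -1.28 and adjusted p between 3.66e-06 and 0.014 (edgeR or DESeq2).

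The other 5p strands were near the lowest counts that passed the filter. MiR-29a-5p, the other arm of MIR29A, had 12.1 and 13.1 CPM before treatment, 7.82 and 7.65 after 24 h, and 7.94 and 6.78 after 96 h, with both 0 h libraries above the other 4. Its log2-fold change at 96 h was -0.77 ± 0.31 (adjusted p = 0.0647, edgeR). MiR-29b-2-5p, the 5p arm of MIR29B2, had 5 and 21 counts before treatment, 12 and 11 after 24 h, and 6 and 3 after 96 h, and its log2-fold change of -1.88 ± 0.71 did not pass (adjusted p = 0.0541, edgeR). The lower 0 h library of this strand, at 1.83 CPM, was close to the 96 h libraries, at 1.36 and 0.814 CPM. Without 0 h replicate 1 it was called (log2-fold change -2.42, adjusted p = 0.0107, edgeR), and without 0 h replicate 2 the value was -0.70 (0.623). MiR-29b-1-5p, the 5p arm of MIR29B1, had 16, 17, 23, 17, 24, and 9 counts in the same order of libraries. Its log2-fold change at 96 h was -0.44 ± 0.50 (adjusted p = 0.503, edgeR), and in TMM-normalized CPM 96 h replicate 1 lay between the 0 h libraries.

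**Figure D2:**
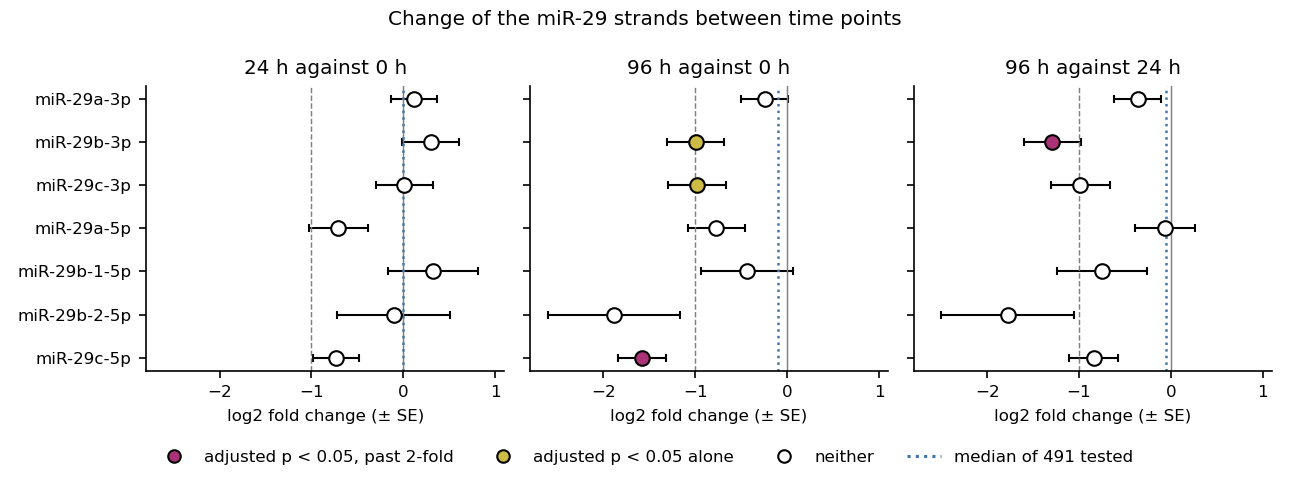
Log2-fold change of each miR-29 strand (horizontal axis, with SE as bars) in the 3 comparisons of time points; filled points passed an adjusted p of 0.05 with a change past 2-fold (purple) or without it (yellow), open points did not pass, and the dotted line is the median of the 491 tested miRNAs. In the comparison of 96 h with 0 h all 7 strands lie below 0, and miR-29c-5p alone is purple.

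All 7 strands had a log2-fold change below 0 at 96 h against 0 h, as did 54.4% of all tested miRNAs. The median was -0.98 over the members and -0.10 over all tested miRNAs. An adjusted p under 0.05 with a fall was reached by 3 members (miR-29b-3p, miR-29c-3p, and miR-29c-5p), against 21.2% of the tested miRNAs. For 5 members both 96 h libraries were below both 0 h libraries, which held for 38.7% of the tested miRNAs, and an exact permutation test of 2 against 2 libraries cannot go below p = 0.333. The strands are not independent observations, since they come from shared hairpins and transcripts.

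At 24 h against 0 h no member was called by edgeR or DESeq2, where 3.46% of the tested miRNAs were called in either direction. One strand had an unadjusted p under 0.05, miR-29c-5p, with a log2-fold change of -0.73 ± 0.25 (adjusted p = 0.103, edgeR). The guide strands had log2-fold changes of 0.12 ± 0.25 for miR-29a-3p, 0.30 ± 0.31 for miR-29b-3p, and 0.01 ± 0.31 for miR-29c-3p, with adjusted p of 0.789, 0.558, and 0.989 (edgeR). These values were within the spread between libraries: leaving out 0 h replicate 2 gave 0.56, 0.86, and 0.57, and leaving out 0 h replicate 1 gave -0.18, -0.06, and -0.35. Of the members only miR-29a-5p and miR-29c-5p had no overlap between 0 h and 24 h, both being lower at 24 h, as were 28.5% of the tested miRNAs. For miR-29a-5p the log2-fold change was -0.71 ± 0.32 (adjusted p = 0.177, edgeR).

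From 24 h to 96 h miR-29b-3p fell from 7640 ± 2976 CPM to 3122 ± 288 CPM (SD, n = 2). The log2-fold change was -1.29 ± 0.31 (adjusted p = 0.0245, edgeR), which is 2.45-fold lower. It was the only member called, 1 of 7, where 2.24% of the tested miRNAs were called lower and 3.67% fell at the adjusted p alone. The call was lost without 24 h replicate 1 (log2-fold change -0.82), 96 h replicate 1 (-1.13), or 96 h replicate 2 (-1.30). Each of these fits leaves 1 library at a time point. In each, a smaller share of all tested miRNAs was called lower than with all libraries, so the loss of the call was not particular to this strand. MiR-29c-3p had a log2-fold change of -0.98 ± 0.32 (adjusted p = 0.0645) and miR-29c-5p one of -0.84 ± 0.27 (0.0638), and neither passed. With the replicate number as a block miR-29c-3p was called as well (-1.01, adjusted p = 0.0274, edgeR). With the numbers of the 24 h libraries exchanged it was not called, and the numbers were not taken to pair the libraries. MiR-29a-3p had -0.36 ± 0.25 (adjusted p = 0.377) and miR-29a-5p had -0.07 ± 0.33 (0.921).

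The make-up of the guide strands was compared within libraries, where the scaling between libraries has no part. Small RNA libraries capture sequences with unequal efficiency, so these are ratios of reads, not of molecules. The count of miR-29b-3p was 0.683 and 0.772 of that of miR-29a-3p before treatment, 0.971 and 0.676 after 24 h, and 0.505 and 0.395 after 96 h. Both 96 h libraries were below the other 4, and the 95% counting intervals were narrow, from 0.386 to 0.403 in the lowest library and from 0.954 to 0.987 in the highest. The means were 0.728 ± 0.0628, 0.823 ± 0.208, and 0.450 ± 0.0779 (SD, n = 2). The difference between 96 h and 0 h had a two-sided exact permutation p of 0.333, the smallest that 2 against 2 libraries allow. In shares, miR-29a-3p made up 59.1% and 56.1% of the guide reads at 0 h and 66.2% and 71.4% at 96 h, and miR-29b-3p went from 40.4% and 43.3% to 33.4% and 28.2%.

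The ratio of miR-29c-3p to miR-29b-3p moved little between 0 h and 96 h, and was lower in both 24 h libraries than in all others. It was 0.0121 in both 0 h libraries, 0.00951 and 0.0108 after 24 h, and 0.0117 and 0.0128 after 96 h, while the ratio of miR-29c-3p to miR-29a-3p had a mean of 0.0088 ± 0.000774 at 0 h and 0.00549 ± 0.000618 at 96 h (SD, n = 2). Between 0 h and 96 h miR-29c-3p thus followed miR-29b-3p more closely than miR-29a-3p. It shares its first 17 bases with miR-29b-3p and differs from miR-29a-3p at 1 base. At 24 h against 0 h the order was the other way. The ratio to miR-29b-3p moved by -0.255 on the log2 scale without overlap, and that to miR-29a-3p by -0.098 with overlap. How the counting assigned reads that were short or had a mismatch is not given in the sources used here, and whether reads of the abundant strands were counted for miR-29c-3p was not tested.

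**Figure D3:**
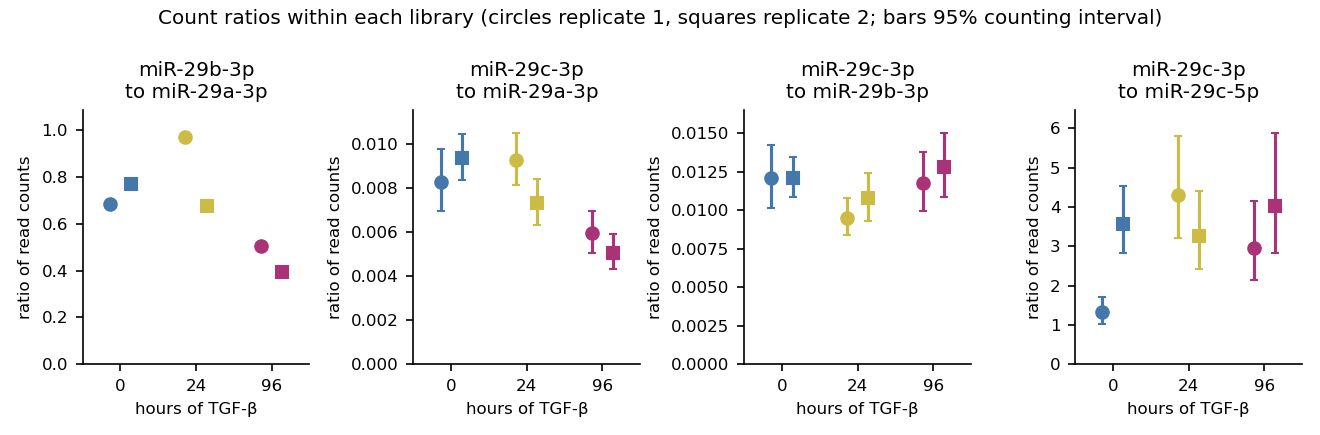
Ratios of read counts within each library (vertical axes, from 0) against hours of TGF-β (horizontal axes); circles are replicate 1, squares replicate 2, and bars 95% counting intervals, which in the first panel are smaller than the points. The 96 h libraries are lowest for miR-29b-3p and miR-29c-3p relative to miR-29a-3p, and miR-29c-3p relative to miR-29b-3p stays between 0.00951 and 0.0128.

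Together the guide strands took 1.23% (95% Wilson interval 1.21% to 1.24%) and 2.58% (2.56% to 2.6%) of the reads before treatment, 2.10% (2.08% to 2.11%) and 1.40% (1.39% to 1.41%) after 24 h, and 0.644% (0.638% to 0.651%) and 0.933% (0.925% to 0.942%) after 96 h. Both 96 h libraries were below the other 4 in this share of the total, in which miR-21-5p also rose. With TMM scaling the sums were 10519 and 18892 CPM before treatment and 8735 and 11797 CPM after 96 h, and these overlapped. The 5p strands together had 58.6 and 52.2 TMM-normalized CPM before treatment, 42.4 and 34.6 after 24 h, and 26.3 and 20.6 after 96 h. These sums did not overlap between time points, and miR-29c-5p made up the largest part of them in each library.

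The arms of a hairpin were not present in equal reads. MiR-29a-3p had from 514 to 1284 reads per read of miR-29a-5p, with means of 661 ± 207, 1177 ± 151, and 985 ± 364 at the 3 time points (SD, n = 2). For MIR29C the ratio of the 3p to the 5p arm was only 1.32 and 3.57 before treatment, 4.29 and 3.25 after 24 h, and 2.96 and 4.03 after 96 h. The ratio was lowest in 0 h replicate 1, where miR-29c-3p had 140 counts and miR-29c-5p had 106, and the other 5 libraries lay between 2.96 and 4.29. Between the 5p arms of the hairpins that both give miR-29b-3p, miR-29b-1-5p had from 0.81 to 4 reads per read of miR-29b-2-5p, with 95% counting intervals that spanned 1 in 4 of 6 libraries.

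The distance between the 0 h libraries in miR-29a-3p recurred in both sequencing runs. In 5 of the libraries the runs could be separated through the normalized values, and they are named here by their depth since the labels do not tie a date to either. MiR-29a-3p had 6690 and 6647 CPM in the smaller and larger run of 0 h replicate 1. In those of 0 h replicate 2 it had 13181 and 13090 CPM. These CPM were scaled to the total of a run over all entries, where a miRNA with several entries is counted for each. They are thus not on the scale of the CPM given elsewhere. The ratio of miR-29b-3p to miR-29a-3p was 0.693 and 0.680 in the runs of the former, 0.768 and 0.776 in those of the latter, and 0.495 and 0.508 in those of 96 h replicate 1. In these values of abundant strands the libraries were further apart than their runs. The widest gap between runs in the ratio of miR-29b-3p to miR-29a-3p was in 24 h replicate 1, at 0.944 and 0.984. In the runs of 24 h replicate 2 that ratio was 0.672 and 0.679, near its values in 0 h replicate 1. The scarce miR-29c-3p had 29 and 111 counts in the runs of 0 h replicate 1, and its ratio to miR-29b-3p there was 0.00893 and 0.0133, a wider gap than that between the whole libraries. On the log2 scale of TMM-normalized CPM, 0 h replicate 2 exceeded replicate 1 by 0.77 for miR-29a-3p, 0.95 for miR-29b-3p, and 0.94 for miR-29c-3p. These differences were larger in size than those of 87.3%, 93.8%, and 93.5% of the 322 miRNAs that averaged 10 CPM or more, and for miR-29c-5p the difference was -0.48.

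**Figure D4:**
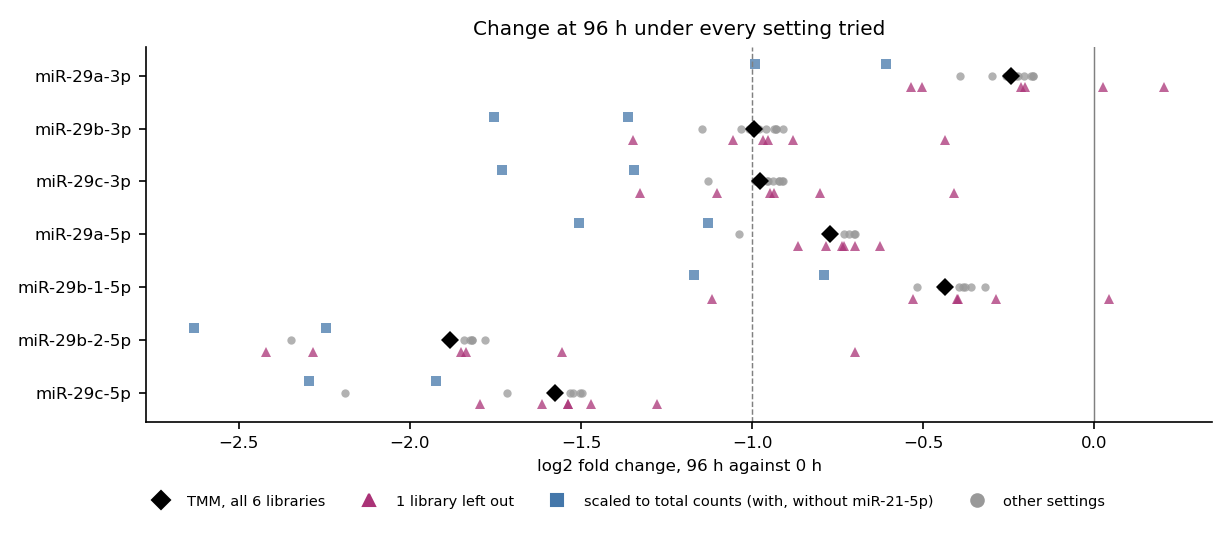
Log2-fold change of each miR-29 strand at 96 h against 0 h (horizontal axis) under every setting tried: TMM with all 6 libraries (black diamonds), 1 library left out (purple triangles), scaling to total counts with or without miR-21-5p (blue squares), and other settings (grey circles); dashed, the fold threshold. Only miR-29c-5p stays beyond the threshold in every setting, and miR-29a-3p reaches 0.20 without 0 h replicate 2.

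Scaling changed how many members were called. With scaling to total counts, in which miR-21-5p weighs most, 5 of 7 members were called lower at 96 h against 0 h (all but miR-29a-3p and miR-29b-1-5p), where 39.1% of all tested miRNAs were called lower. In that scaling 192 miRNAs were called lower and 23 higher, against 65 and 62 with TMM, and over all tested miRNAs the median of the log2-fold changes shifted from -0.10 to -0.83. Relative to that median, miR-29b-3p was at -0.92 with total counts and -0.89 with TMM, and miR-29c-5p at -1.46 and -1.48. MiR-29a-3p was at -0.16 and -0.14. Its log2-fold change itself was -0.99 with total counts, which passed the adjusted p (0.0212, edgeR) and missed the fold threshold.

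The miRNAs with a pattern most like that of each guide strand were found by the root mean square difference of log2 TMM-normalized CPM, centred per miRNA, over the 6 libraries, among 318 other miRNAs that averaged 10 CPM or more. For miR-29a-3p they were miR-137 (0.0979), miR-107 (0.102), and miR-151a-5p (0.186). Its nearest family member was miR-29c-3p (0.324), and 54 miRNAs outside the family were nearer than that. For miR-29b-3p the nearest of all was its family member miR-29c-3p (0.143), followed outside the family by miR-130a-3p (0.178), miR-362-5p (0.187), and miR-15a-5p (0.217). For miR-29c-3p they were let-7i-3p (0.122), miR-362-5p (0.136), and miR-130b-3p (0.140). The difference between libraries of a time point weighs in this measure as much as that between time points.

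Other miRNAs linked to TGF-β and fibrosis were set beside the family. Of 17 tested miRNAs known mainly to restrain fibrosis, 2 were called lower and 1 higher at 96 h against 0 h, and the median of their log2-fold changes was 0.10. Of all tested miRNAs 12.6% were called higher and, as above, 13.2% lower. The lower ones were miR-326 (-3.01, adjusted p = 0.00656, edgeR) and miR-18a-5p (-1.19, 0.00983). MiR-326 had 18 and 32 counts before treatment and 7 and 1 after 96 h. The higher one was miR-200b-3p (1.60, adjusted p = 2.57e-04, edgeR), a repressor of ZEB1. At the adjusted p alone, 6 of the 17 rose and 3 fell, where 22.8% of all tested miRNAs rose and 21.2% fell. The 6 were let-7a-5p, miR-26a-5p, miR-30a-5p, miR-101-3p, miR-200a-3p, and miR-200b-3p. Of 12 tested miRNAs known mainly to promote fibrosis, 3 were called higher and 0 lower, with a median of 0.90. These were miR-143-3p (6.32, adjusted p = 2.75e-08, edgeR), miR-145-5p (5.05, 0.00108), and miR-382-5p (1.24, 0.00105). MiR-145-5p had only 1 and 0 counts before treatment, against 29 and 25 after 96 h. At the adjusted p alone, 5 of the 12 rose and 1 fell, miR-34a-5p (-0.73, adjusted p = 0.00618, edgeR). Both lists were chosen with earlier results of these data known, so their counts and medians are a description. The named miRNAs of both lists were picked after their values were seen. MiR-21-5p, of the list that promotes fibrosis, rose by 0.97 ± 0.18 on the log2 scale (adjusted p = 0.0021, edgeR), just under the fold threshold.

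MiRNAs of other cell types were checked on the TMM scale. None of 6 miRNAs of blood cells and none of 5 of fibroblasts passed the filter on low counts. The fibroblast list summed to 2.20 and 1.19 TMM-normalized CPM before treatment, 0.372 and 4.28 after 24 h, and 4.31 and 2.44 after 96 h. Both 96 h libraries were thus above both 0 h libraries, at levels of a few reads, and 2 of the 5 were at 0 in all libraries. The blood list summed to 5.50 and 4.78 CPM before treatment and 1.13 and 1.36 CPM after 96 h, with 2 of 6 at 0 in all libraries. The part of such cells in the miR-29 values was not tested. MiR-122-5p, of hepatocytes, was called lower at 96 h against 0 h (-2.64, adjusted p = 0.029, edgeR). It had 15 and 9 counts before treatment and 4 and 1 after 96 h. Of 7 muscle miRNAs 1 passed the filter and was not called. Of 7 tested epithelial miRNAs 1 was called higher, where 12.6% of all tested miRNAs were. The epithelial list summed to 151 and 153 CPM before treatment and 279 and 266 CPM after 96 h. Without TMM these sums were 176 to 208 CPM and 206 to 211 CPM. Its tested miRNAs went both ways. Log2-fold changes were 1.60 for miR-200b-3p, 0.81 for miR-200a-3p, 0.75 for miR-203a-3p, and 0.20 for miR-429. They were -1.14 for miR-141-3p, -0.19 for miR-375, and -0.03 for miR-200c-3p. For the 2 strands of miR-126, an endothelial miRNA, the sums were 461 and 404 CPM before treatment and 495 and 456 CPM after 96 h, and neither strand was called (log2-fold changes 0.13 and 0.18, adjusted p = 0.484 and 0.601, edgeR).

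The known targets of the family were examined in sequence only, since mRNA was not measured here. The 7 bases that pair with the shared seed, TGGTGCT, were searched on the transcript strand in the 3′UTRs of canonical coding transcripts (GENCODE annotation on GRCh37). They occurred in 14.0% of 19382 3′UTRs and in 22 of 25 of a list of matrix genes known as targets of miR-29, with 35 matches in all. In the first 500 bases alone, which evens out length, 5.06% of 13478 3′UTRs and 12 of 23 of the list held a match. The list was chosen for being known targets, so this count is a description. COL5A1, a chain of type V collagen, held 4 matches, COL5A3, ELN (elastin), and LOX (lysyl oxidase, which cross-links collagen) held 3 each, and SERPINH1, HSP90B1, and ITGA11 held none. The first match after the stop codon in 4 targets that build fibrils, microfibrils, or basement membrane is shown in capitals. COL3A1 and FBN1 held 2 matches each, of which the second is not shown.
COL1A1 (chr17:48261929-48261952, minus strand): ggagggaatcacTGGTGCTataga
COL3A1 (chr2:189876730-189876753, plus strand): aaaatgtctcaaTGGTGCTataat
COL4A1 (chr13:110802669-110802692, minus strand): aatgtcacaacaTGGTGCTacttc
FBN1 (chr15:48702760-48702783, minus strand): atggtacctattTGGTGCTagtaa
A match is a string of letters in the reference, and whether these sites were used in A549 cells was not tested.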

How the data were processed

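An Illumina kit for small RNA and a HiSeq sequencer were used. The authors deposited counts, whole reads per mature miRNA and precursor from miRDeep2, with both runs of a library summed. The submitters' processing notes name hg19 and FastQC, and mapper settings are not given in the sources used here. The authors also deposited a normalized signal, the sum of both runs after each had been scaled to one total; 1 column repeats another in name and values and was not used, so 96 h replicate 2 has no normalized value. These values served only to separate runs: in 5 libraries all of 916 to 1027 low-count entries came out whole to within 0.075 reads.

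For a name with several entries the one with the highest total was used. MiR-29b-3p has 2 entries, which differed by 7 to 39 counts and were not added. Counts were fitted in R 4.3.3 with edgeR 4.0.16 (TMM, filterByExpr with a minimum count of 10, quasi-likelihood F-test, Benjamini-Hochberg adjustment over 491 miRNAs) with time point as the only term over all 6 libraries. The SE is the absolute log2-fold change over the square root of F. The fit was tested on simulated data. Alternatives were DESeq2 1.42.0 and its size factors, total counts with and without miR-21-5p, no filter, a minimum mean of 10 CPM, no fold threshold, the compared time points alone, sums over precursors, the replicate number as a block, and each library left out. Runs apart, crossed numbers, and libraries thinned to the smallest total were chosen after seeing the data.

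Library totals ranged from 2335185 to 5971197 counts. A count of 0 allows up to 3 counts, or 0.502 to 1.28 CPM by library. Such limits and intervals hold counting error alone, as PCR copies of a molecule were not told apart. Named miRNAs were all members, miR-21-5p, and for each member the 3 tested miRNAs outside the family with the nearest centred pattern; miRNAs of the fibrosis and cell type lists were named in addition, after their values were seen. The members and lists were chosen with earlier results of these data known.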

Additional observations from a re-analysis of the deposited data

Results flagged for a closer look

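The responses of miR-29b-3p at 24 h and at 96 h, both against 0 h, differed from each other: its log2-fold change was 0.30 ± 0.31 at 24 h and -0.99 ± 0.31 at 96 h, and the test of the difference itself, 96 h against 24 h, gave -1.29 ± 0.31 (adjusted p = 0.0245, quasi-likelihood test of edgeR, Benjamini-Hochberg adjusted, 2 libraries per time point). Both 96 h libraries were below both 24 h libraries. The call was lost without 24 h replicate 1, 96 h replicate 1, or 96 h replicate 2. In each of these fits a smaller share of all tested miRNAs was called lower than with all libraries.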

How the results depend on the processing

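At 96 h against 0 h, where 1 member was called, the number called was 3 with no minimum fold change (21.2% of all tested miRNAs fell), 5 with total counts (39.1% called lower), 5 with total counts less miR-21-5p (24.6%), 2 with no filter (4.3%), 3 with a mean of at least 10 CPM (13.9%), 2 with sums over precursors (13.2%), 3 after thinning (12.7%), and 1 to 4 with a library left out (6.77% to 11.2%). At 24 h against 0 h (0 called) it was 1 with total counts (5.7% called lower). At 96 h against 24 h (1 called) it was 3 with total counts (11.8% called lower) and 2 without miR-21-5p in them (3.87%). After thinning it was 2 (1.73%). With a library left out, the log2-fold change of miR-29b-3p, the member called there, lay between -1.56 and -0.82. Apart from these, the blocks below, and the fits with a library left out, the settings gave the same counts. With DESeq2's size factors 53 miRNAs were called lower and 75 higher at 96 h against 0 h, against 65 and 62 with TMM. The causes were not tested beyond the construction of each setting.

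The replicate number as a block called 1, 0, and 2 members in the same order, where 12.4%, 2.24%, and 4.07% of all tested miRNAs were called lower. The pairing rests on numbers only: deviations of same-numbered libraries correlated at -0.48 (0 h and 24 h), 0.49 (0 h and 96 h), and -0.36 (24 h and 96 h), so the numbers were not taken to pair the libraries. With the 24 h numbers crossed, 2, 0, and 1 members were called, where 14.7%, 3.05%, and 4.48% of all tested miRNAs were called lower. The separate test of the first sequencing date was not run, since the dates could not be tied to the separated runs.

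Some log2-fold changes changed sign. For 96 h against 0 h, leaving out a library gave from -0.54 to 0.20 for miR-29a-3p, positive without 0 h replicate 2 and, at 0.026, without 96 h replicate 1. The range for miR-29b-1-5p was -1.12 to 0.042, positive without 96 h replicate 2. For 24 h against 0 h total counts gave -0.20, -0.021, and -0.31 for miR-29a-3p, miR-29b-3p, and miR-29c-3p, and without miR-21-5p in them -0.080 for miR-29a-3p and -0.19 for miR-29c-3p. MiR-29c-3p was also -0.085 with a mean of at least 10 CPM, -0.034 with only the time points compared, and -0.0067 with sums over precursors. The lowest and highest values at 24 h with a library left out were -0.18 and 0.56 for miR-29a-3p, -0.13 and 0.86 for miR-29b-3p, -0.35 and 0.57 for miR-29c-3p, -0.031 and 0.60 for miR-29b-1-5p, and -0.65 and 1.08 for miR-29b-2-5p. For 96 h against 24 h miR-29a-5p lay between -0.13 and 0.12. Depth limits miR-29b-1-5p and miR-29b-2-5p most, with at most 24 counts in a library.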

Other observations

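Among the 5p strands, the patterns nearest to miR-29c-5p over the 6 libraries, by root mean square log2 difference, were miR-25-5p (0.137), miR-27b-5p (0.171), and miR-92b-5p (0.202), and the nearest in the family was miR-29a-5p (0.406). For miR-29a-5p they were miR-222-3p (0.0952), miR-330-5p (0.0986), and miR-339-5p (0.0998). MiR-29b-2-5p was nearer to its own 3p strand, miR-29b-3p (0.341), than to any miRNA outside the family, of which miR-130b-3p (0.389) was nearest, followed by miR-362-5p (0.419) and miR-17-3p (0.444). MiR-29b-1-5p was nearest to miR-454-3p (0.283), miR-125b-2-3p (0.325), and miR-1260b (0.329). The 5p strands of both miR-29b hairpins had at most 24 counts in a library.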
